A study of Mus musculus with 9 samples.

Results

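Named pseudogenes are the genes whose deposited name ends in -ps, alone or followed by digits, as in Rpl10a-ps1. The rule used the name and no measured value, and 145 of the 15977 genes in the table carried it. For 76 of the 145 the name before -ps is that of a cytosolic ribosomal protein gene, and 69 are named after other genes. The 145 names point to 99 distinct parent genes, and for 116 members the parent gene has its own row in the table.

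A pseudogene is a copy of a gene that was formed during evolution and has lost, or is taken to have lost, the ability to make the protein. A processed pseudogene, or retrocopy, arose when a spliced mRNA was copied back into DNA and inserted elsewhere in the genome, so that it lacks introns and brings no promoter along. An unprocessed pseudogene arose by duplication of the gene itself, and a unitary pseudogene is a gene disabled in place. Ribosomal protein genes are short and are read into abundant mRNA in nearly all cells, and mammalian genomes hold many retrocopies of them. Because a young retrocopy still resembles its parent almost base for base, a short sequencing read from one can match the other.

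The libraries came from N2A, a line grown from a mouse neuroblastoma, after knockout of MOV10, an RNA helicase. Per transfection 2 micrograms of DNA brought back MOV10 in 1 of 3 forms, and the cells were harvested 24 hours later. WT cells received the unaltered protein, S970A cells a protein with alanine at serine 970, which cannot be phosphorylated, and S970D cells a protein with aspartate there, which carries a negative charge like a phosphate. Each group had 3 libraries, and the values are log2 CPM, that is, library-scaled counts on a log2 scale, as the authors deposited them. All 9 libraries thus came from cells that lacked their own MOV10 and carried an introduced one, and no untransfected library was analysed here. No label says that the replicates were separate cultures, so p-values measure the spread between libraries, which may be technical.

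Introduced Mov10 was present in every library, at 14.90, 15.49 and 15.71 log2 CPM in WT, 14.62, 15.24 and 15.42 in S970A and 14.57, 14.84 and 14.75 in S970D. All S970D libraries lay below all WT libraries, with an S970D-minus-WT difference of -0.65 (SE 0.29) on the log2 scale. The form of MOV10 and the level of its RNA thus varied together, and the part of that level in the results below was not tested. Of 12 neuroblastoma markers, 10 were in the table, among them Phox2a and Hand2, at a median of 6.66 log2 CPM, while Th and Dbh, the enzymes of catecholamine synthesis, averaged -1.09 and -1.29. Of 6 leukocyte markers only Cd68 was listed, and its level was higher in S970D, by 1.27 on the log2 scale; its part in the results below was not tested. Of 6 fibroblast, 5 epithelial and 5 endothelial markers, 2, 2 and 3 were listed, and the summed level of the endothelial ones was 3.22 to 3.42 log2 CPM in WT and 3.41 to 4.17 in S970D. S970A replicate 1 stood apart from its group. Over all genes its median absolute difference from the other S970A libraries was 0.58 and 0.66 on the log2 scale, while those 2 libraries differed by 0.16. Results that rest on this library are given with and without it.

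Of the 145 members, the GENCODE vM21 annotation of the genome build GRCm38 calls 100 processed pseudogenes, 8 transcribed processed, 12 unprocessed, 11 transcribed unprocessed and 3 transcribed unitary pseudogenes. The other 11 bear a pseudogene name but are annotated as working genes or noncoding RNA. The 8 annotated as protein coding were Rpl10-ps3, Rpl36a-ps1, Ftl1-ps1, Rps12-ps3, Nutf2-ps1, Anapc15-ps, Rps18-ps5 and Tes3-ps, and Rps18-ps4, Tmem250-ps and Ndufb1-ps are noncoding RNA. A further 645 genes of the table are annotated as pseudogenes without the -ps ending. The members have a median transcript length of 636 bases, against 2660 for all genes, and 119 consist of 1 exon. Over the 115 members that could be aligned to their parent, the median identity was 98.88% and the lowest 80.9%.

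The libraries were read for 101 cycles from each end, so each member's transcript was divided into all its 101-base windows and each window was looked up in every other annotated transcript. Of the 145 members, 20 shared no window with any other gene, and 10 shared every window, 8 of them with the parent itself. The median share was 44.4% of the windows for ribosomal protein pseudogenes and 26.8% for the others. A window that 2 genes share cannot assign a single read to either of them, so the split of reads between such a pair rests on the authors' counting, and the values of members with many shared windows are uncertain to that extent.

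The sequences of 5 members show this range of likeness. Each is a stretch of 101 bases, 1 read in length, inside the region that aligns to the parent's coding sequence, read 5′ to 3′ from the GENCODE vM21 transcripts, and each is the stretch of that length with the most differences. Capitals mark the bases at which pseudogene and parent differ. Rpl10a-ps1 is shown because it had the largest difference between groups of all members. Its stretch, at chr1:64994504-64994604 on the minus strand, holds the same letters as the start of the coding sequence of Rpl10a, a large-subunit protein gene on chromosome 17.
Rpl10a-ps1: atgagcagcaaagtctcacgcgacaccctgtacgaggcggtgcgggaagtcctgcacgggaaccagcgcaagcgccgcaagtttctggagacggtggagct
Mpc1-ps and Kansl2-ps are shown because each is nearly identical to its parent and was listed at the lowest value in every S970D library. The stretch of Mpc1-ps lies at chr12:110858794-110858894 on the minus strand and that of Kansl2-ps at chr7:72673890-72673990 on the plus strand, and each differs from its parent at 1 base.
Mpc1-ps: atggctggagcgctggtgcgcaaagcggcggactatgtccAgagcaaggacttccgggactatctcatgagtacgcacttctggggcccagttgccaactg
Mpc1: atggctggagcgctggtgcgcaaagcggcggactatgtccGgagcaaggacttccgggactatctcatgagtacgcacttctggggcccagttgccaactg
Kansl2-ps: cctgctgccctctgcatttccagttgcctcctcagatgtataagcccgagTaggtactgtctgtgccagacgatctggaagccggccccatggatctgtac
Kansl2: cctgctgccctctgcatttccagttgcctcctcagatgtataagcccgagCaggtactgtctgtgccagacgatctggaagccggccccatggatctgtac
Rpl21-ps1, at chr1:184617434-184617534 on the plus strand, and Rpl31-ps21, at chr5:21119225-21119325 on the minus strand, are shown as ribosomal protein retrocopies that share no window with any gene. They differ from Rpl21 at 11 bases and from Rpl31 at 12.
Rpl21-ps1: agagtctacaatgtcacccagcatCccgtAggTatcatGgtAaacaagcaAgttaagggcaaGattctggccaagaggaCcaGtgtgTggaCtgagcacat
Rpl21: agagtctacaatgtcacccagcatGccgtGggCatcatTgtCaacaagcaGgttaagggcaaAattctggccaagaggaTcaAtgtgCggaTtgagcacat
Rpl31-ps21: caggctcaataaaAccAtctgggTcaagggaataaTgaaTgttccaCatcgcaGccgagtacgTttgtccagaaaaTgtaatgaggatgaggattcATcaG
Rpl31: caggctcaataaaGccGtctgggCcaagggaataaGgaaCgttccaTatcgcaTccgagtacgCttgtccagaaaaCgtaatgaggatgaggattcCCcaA
In Rpl36a-ps3, on chromosome 6, name and sequence part ways. Over its whole length it shared 54.3% of its windows with Rpl36al, the intronless relative of Rpl36a, and 0 with Rpl36a.

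Many members still hold an open reading frame. In 98 members the base at the parent's start codon could be aligned, and 97 of these had ATG there. Read from that codon, 47 reached the first stop after as many codons as the parent, 34 of them ribosomal. Another 29 stopped earlier, 21 had no in-frame stop before the annotated transcript ended, and 1 was longer. That one, Rpl36a-ps1, had 107 codons against 68 in the Rpl36a transcript to which it was aligned. The Rpl36a transcript aligned to Rpl36a-ps2 and Rpl36a-ps3 had 107 codons, so Rpl36a-ps1 is no longer than that one. Rpl10a-ps1 kept all 218 codons of Rpl10a, Mpc1-ps all 110 of Mpc1 and Sms-ps all 367 of Sms, the gene for spermine synthase. Kansl2-ps met a stop at codon 375 of 487, and the base in capitals in its printed stretch lies in that codon. Rps12-ps4 stopped at codon 56 of 133.

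Most members were low and a few were among the abundant genes. The mean level over all 9 libraries was below 0 log2 CPM for 79 members, 50 of them ribosomal, and at or above 5 for 19, of which 13 were ribosomal. The median member averaged -0.31 log2 CPM and the median gene 3.90. Named pseudogenes together held 1.07%, 0.702% and 0.592% of the summed CPM in the WT libraries, 1.50%, 0.865% and 0.748% in S970A and 1.68%, 1.35% and 1.33% in S970D. Every S970D library thus stood above every WT library, and S970A replicate 1 stood with S970D. Cytosolic ribosomal protein genes themselves held 5.22% to 8.75% of the summed CPM in WT and 11.4% to 12.9% in S970D. The deposited table does not tell fewer cells of a kind from less RNA per cell.

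The 6 members with the highest mean level were all named after ribosomal protein genes. Rps2-ps10, a transcribed processed copy of the small-subunit gene Rps2, was listed at 11.16, 10.47 and 10.24 log2 CPM in WT, 12.02, 10.87 and 10.59 in S970A and 12.09, 11.89 and 11.56 in S970D. It took 72.6% to 84.2% of the summed CPM of itself and Rps2 in every library, while Rps2 was at 8.83 to 9.94 log2 CPM. Since Rps2-ps10 shares 92.1% of its windows with other genes, that share rests largely on the authors' counting. The S970D libraries of Rps2-ps10 lay above all WT libraries, by 1.22 (SE 0.38) on the log2 scale, with an adjusted p of 0.0756 in limma and 0.00642 with the replicate block.

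Rps12-ps3, which is annotated as protein coding and identical to Rps12 over its 494 bases, was at 10.41, 9.62 and 9.50 log2 CPM in WT, 10.55, 10.19 and 9.80 in S970A and 11.02, 10.07 and 10.92 in S970D. Rps12 was close to it, at 9.57 to 11.32, and the pseudogene took 33.5% to 54.1% of the pair, a split that rests on the authors' counting. Its S970D and WT libraries overlapped. Rps6-ps4, identical over 750 bases to Rps6, the small-subunit protein phosphorylated by S6 kinases, was at 10.02, 9.34 and 9.01 in WT, 10.85, 9.72 and 9.49 in S970A and 10.76, 10.64 and 10.32 in S970D. Its S970D libraries lay above the WT libraries, by 1.12 (SE 0.37), adjusted p = 0.0756 in limma.

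Rpl3-ps1 copies Rpl3, a large-subunit protein near the peptidyl transferase centre, and was at 9.69, 9.30 and 9.18 log2 CPM in WT, 10.21, 9.49 and 9.31 in S970A and 10.19, 10.03 and 9.98 in S970D. Its S970D libraries lay above WT by 0.67 (SE 0.24), while Rpl3 itself differed by 0.15 (SE 0.16). Rpl19-ps11, which differs from Rpl19 at 1 of 591 bases, was at 9.60, 9.10 and 8.55 in WT, 10.58, 9.05 and 9.13 in S970A and 10.62, 10.35 and 9.75 in S970D, again with S970D above WT in every library. Rps2-ps6 was at 9.03, 8.34 and 8.30 in WT, 9.16, 8.79 and 8.59 in S970A and 9.41, 9.24 and 9.02 in S970D. Its S970D and WT libraries overlapped by the one WT library at 9.03, and its difference of 0.67 turned to -0.21 once the GC and length trend was taken out.

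**Figure D1:**
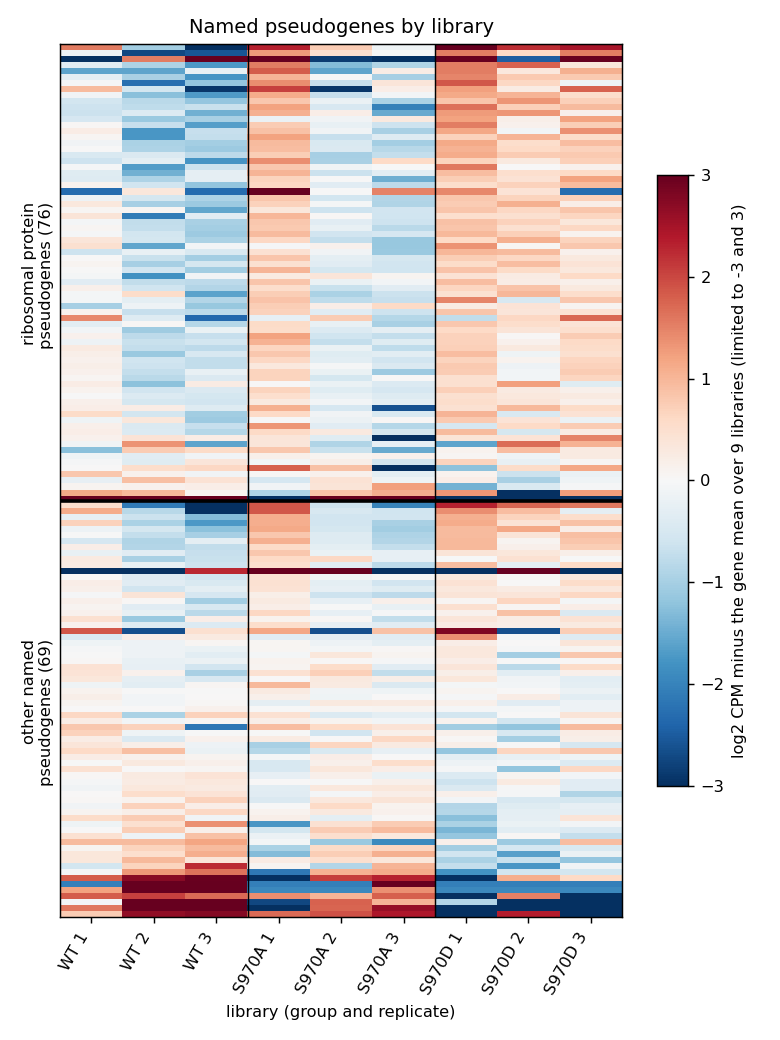
Heat map of the 145 named pseudogenes (rows) in the 9 libraries (columns), as log2 CPM minus the gene's mean over the libraries, limited to -3 and 3, with ribosomal protein pseudogenes above the line and the 69 others below, each ordered by S970D minus WT. Most ribosomal rows are red in the S970D libraries and in S970A replicate 1 and blue in WT replicates 2 and 3; the other members show both colours.

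Ribosomal protein pseudogenes were mostly higher in S970D cells than in WT cells, whereas the other named pseudogenes lay on both sides of WT. Of the 76 ribosomal members, 70 had a higher mean in S970D, and the median difference from WT was 1.09 on the log2 scale, or 0.55 with the GC and length trend taken out. Of the 69 others, 30 were higher and 39 lower, with a median of -0.13, and the median of all 15977 genes was -0.002. The median ribosomal member stood at -0.92, -1.20 and -1.61 log2 CPM in the WT libraries, 0.07, -1.06 and -1.22 in S970A and -0.02, -0.34 and -0.16 in S970D. All S970D libraries thus lay above all WT libraries, and among the S970A libraries replicate 1 alone reached the S970D level. The median of the other members was 0.96, 1.30 and 1.43 in WT, 0.77, 1.19 and 0.81 in S970A and 0.46, 1.06 and 0.76 in S970D, so that the groups overlapped. Replication-dependent histone genes, short genes whose mRNA lacks a poly(A) tail, moved with the ribosomal members: 47 of 52 were higher in S970D, with a median of 0.93, and with the replicate number as a block in the fit 22 (42.3%) rose and 2 (3.85%) fell, where 22.2% of all genes were higher and 23.3% lower. The median of 15 mitochondrially encoded genes was -0.30, and in the same fit 1 rose and 6 fell. The part of the poly(A) tail or of RNA quality in these differences was not tested.

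**Figure D2:**
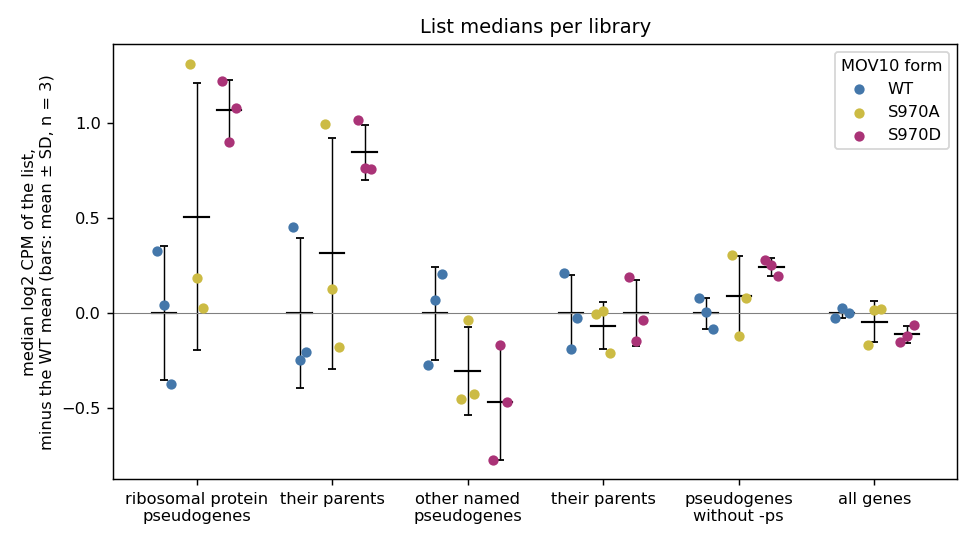
Median log2 CPM of 6 gene lists in each library, minus the mean of the WT libraries, coloured by the MOV10 form; each point is 1 library and bars give the mean ± SD of 3 libraries. In ribosomal protein pseudogenes and in their parents the S970D points lie above the WT points, and 1 S970A point, replicate 1, lies with S970D.

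No single member passed limma's test over all 9 libraries at an adjusted p under 0.05 in S970D against WT, and 0.00626% of all genes did, which is 1 gene and no member. The smallest adjusted p of a member was 0.0756. At an unadjusted p under 0.05, 52 members were higher and 16 lower, where 21.6% of all genes were higher and 22.7% lower. Over all genes, same-numbered WT and S970D libraries deviated from their group means together, with correlations of 0.31, 0.11 and 0.16, but over the 145 members alone the correlations were 0.064, 0.012 and -0.040. With the replicate number as a block 68 members (46.9%) passed, close to the 45.5% of all genes. Of these, 52 were higher and 16 lower in S970D, where 22.2% of all genes were higher and 23.3% lower. Among ribosomal members 41 of 76 (53.9%) rose in the blocked fit and 1 fell. Of the others 11 of 69 (15.9%) rose and 15 (21.7%) fell.

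Libraries gave a like picture without a test. The S970D and WT libraries did not overlap for 52 members (35.9%) that were higher in S970D and 19 (13.1%) that were lower, where 27.9% of all genes were higher and 29.3% lower. Ribosomal members made up 43 of the 52 and 2 of the 19. Without S970A replicate 1 the spread between libraries was smaller, and limma called 49 members higher and 13 lower, beside 22.8% and 24.9% of all genes. The median of the ribosomal members was 0.42 with a pseudocount of 1 CPM, since most of them lie below 1 CPM, and 0.55 after removal of the trend over GC content and length, where 39 members (26.9%) passed with the block, beside 24.7% of all genes.

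Both ribosomal subunits were represented. Large-subunit (Rpl) copies numbered 43, with a median S970D-minus-WT difference of 1.11, and in the blocked fit 22 rose and 1 fell. Small-subunit (Rps and Rpsa) copies numbered 33, with a median of 1.07, and 19 rose and 0 fell. The shares that rose were 51.2% of the large-subunit and 57.6% of the small-subunit copies, where 22.2% of all genes were higher and 23.3% lower in that fit. Several parents have a family of copies in the table. The 8 copies of Rpl21 differed by 0.67 to 1.92 and spanned mean levels of -2.33 to 3.34 log2 CPM. The 6 copies of Rps2 differed by 0.67 to 1.76 and the 5 of Rpsa, the laminin receptor protein of the small subunit, by 0.93 to 2.02. In the 4 copies of Rpl7a the differences were smaller, 0.19 to 0.64, and Rpl7a itself differed by 0.50. The 5 copies of Rps12 and the 4 of Rpl31 spanned both directions, from -0.66 to 1.28 and from -0.77 to 1.13. Copies of one parent share much of their sequence with it and with each other, so they are not independent measurements.

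The positive differences were led by Rpl10-ps3, annotated as protein coding and identical to the large-subunit gene Rpl10 over 740 bases. It was listed at 8.85, 6.26 and -4.09 log2 CPM in WT, 9.64, 8.06 and 7.18 in S970A and 10.52, 9.53 and 9.77 in S970D, where -4.09 is the lowest value of the table. All S970D libraries lay above all WT libraries, and WT replicate 3 was at the lowest value. Rpl10 stayed within 9.67 and 10.51 in the 9 libraries. Nutf2-ps1, annotated as protein coding and named after the factor that carries Ran into the nucleus, was at 6.29, 3.66 and 2.55 in WT, 7.64, 5.16 and 3.78 in S970A and 8.11, 7.53 and 7.38 in S970D. Its S970D libraries were all higher, by 3.51 (SE 1.07), adjusted p = 0.0756 in limma and 0.00642 with the block, while Nutf2 differed by -0.35 (SE 0.18). Nutf2-ps1 is identical to Nutf2 over 868 bases and shares 95.9% of its windows with it. The split of reads between them, and so this contrast, rests on the authors' counting.

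Rps10-ps2, a copy of a small-subunit gene with 5 differences over 496 bases, was low at -0.59, -3.18 and -3.02 log2 CPM in WT, 0.84, 0.02 and -0.45 in S970A and 1.09, 0.16 and 1.09 in S970D. Both mutant groups lay above WT in every library, and S970D differed by 3.04 (SE 0.68), adjusted p = 0.0756 in limma and 0.00642 with the block. Rps15a-ps7 had a difference of 2.33 that rested on single libraries. It was at -4.09, 4.27 and 5.92 in WT, 5.83, -0.12 and -0.32 in S970A and 6.87, 0.25 and 5.97 in S970D, and without WT replicate 1 the difference was -0.73. High and low libraries of Rps15a-ps7 occurred in all 3 groups.

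Negative differences were led by members listed at the lowest value of the table. A difference that involves the lowest value depends on the prior count behind the deposited log2 values and sets no bound on the fold. Rpl10a-ps1 (ENSMUSG00000084416.3, chr1:64993951-64994604) was listed at 6.03, 7.49 and 6.84 log2 CPM in WT, -4.09, 7.04 and 7.64 in S970A and -4.09 in all 3 S970D libraries. It was thus at 6.03 or above in 5 libraries and at the lowest value in 4, the S970D libraries and S970A replicate 1. Rpl10a moved the other way, at 9.61, 8.52 and 8.54 in WT, 10.46, 9.09 and 8.48 in S970A and 10.53, 10.23 and 10.26 in S970D. The pseudogene's share of the pair's summed CPM was 7.71%, 32.9% and 23.4% in WT and 0.00396% to 0.00489% in S970D.

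Ptges3-ps, identical over 480 bases to the gene for the HSP90 co-chaperone p23, was at 3.96, 5.86 and 5.95 log2 CPM in WT, 4.89, 5.09 and 5.61 in S970A and -4.09, 5.55 and -4.09 in S970D. One S970D library held it at the WT level and the other 2 listed it at the lowest value. Psenen-ps, identical over 306 bases to the gene for the gamma-secretase subunit PEN-2, showed the same 2 libraries at the lowest value. It was at 3.34, 3.58 and 3.24 in WT, 2.92, 2.54 and 3.33 in S970A and -4.09, 3.04 and -4.09 in S970D. Psenen was at 5.90, 4.88 and 4.73 in WT and 7.17, 5.98 and 6.53 in S970D, so it differed by 1.39 (SE 0.42) in the other direction.

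Mpc1-ps, a copy of the mitochondrial pyruvate carrier gene, was at 0.57, 2.36 and 2.01 log2 CPM in WT, -4.09, 0.73 and 1.61 in S970A and -4.09 in every S970D library. Mpc1 stayed between 5.62 and 5.94 in all 9 libraries. Vdac3-ps1, named after a channel of the outer mitochondrial membrane and 99.53% identical to it, was at -0.37, 3.12 and 4.74 in WT, -3.04, 1.46 and 0.72 in S970A and -1.19, -4.09 and -4.09 in S970D. Vdac3 stayed between 8.45 and 8.74. All S970D libraries of these 2 members lay below all WT libraries.

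Kansl2-ps copies a subunit of the NSL histone acetyltransferase complex and was at -0.93, 0.85 and 1.99 log2 CPM in WT, -4.09, -4.09 and -0.77 in S970A and -4.09 in every S970D library. Sms-ps, identical over 1101 bases to the spermine synthase gene, was at 4.51, 5.43 and 5.68 in WT, -4.09, 4.79 and 5.01 in S970A and -4.09, 3.81 and 3.31 in S970D. Libraries at the lowest value of Sms-ps thus carried replicate number 1 in both mutant groups. Rab11b-ps2, a copy of a recycling endosome GTPase gene, was at -4.09, 2.38 and 2.50 in WT, -4.09, -4.09 and 1.40 in S970A and -4.09 in every S970D library, so that all libraries numbered 1 were at the lowest value.

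**Figure D3:**
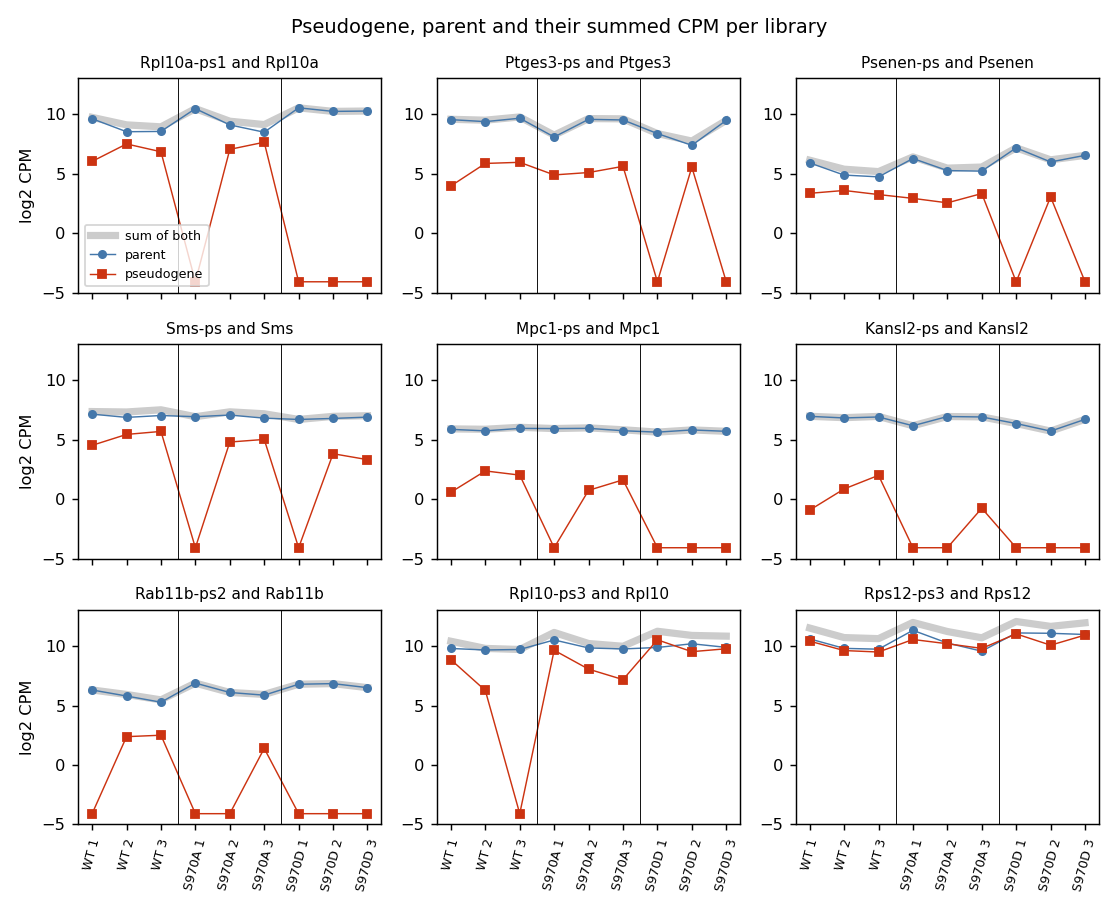
Log2 CPM of 9 pseudogenes (red squares), their parents (blue circles) and the log2 of their summed CPM (grey) in the 9 libraries, in order of group and replicate. Pseudogenes such as Rpl10a-ps1 and Sms-ps switch between several log2 CPM and the lowest value of -4.09, while the parent and the sum move far less; Rps12-ps3 follows Rps12 without such switches.

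Listing at the lowest value was more frequent among the members than in the table at large. It occurred in 1 or more libraries for 25 members (17.2%), 14 ribosomal and 11 others, and for 1.66% of all genes. Per library 5 or 6 members were at the lowest value in WT, 5 in S970A and 6 to 9 in S970D. Over all genes the numbers were 59 to 66 per library in WT, 50 to 80 in S970A and 69 to 93 in S970D, so S970D exceeded WT there as well. Ribosomal members at the lowest value numbered 3 to 5 per library in WT and 1 or 2 in S970D, whereas others numbered 1 or 2 in WT and 5 to 7 in S970D. Rpl10a-ps1, Ptges3-ps, Sms-ps and Rpl10-ps3 were at the lowest value in some libraries and exceeded 5 log2 CPM in others. Without the 25 members the median difference between S970D and WT was 1.04 for ribosomal members and -0.07 for the others.

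Besides Nutf2-ps1, 10 of the 69 non-ribosomal members rose in the blocked fit, and the 11 together (15.9%) were a smaller share than the 22.2% of all genes. Oaz1-ps, named after ornithine decarboxylase antizyme, was at 5.62, 5.21 and 4.55 log2 CPM in WT and 6.91, 6.54 and 6.38 in S970D, a difference of 1.48 (SE 0.45). Ftl1-ps1, named after the ferritin light chain and annotated as protein coding, differed by 1.41 (SE 0.54). Tdg-ps, named after the DNA repair enzyme thymine DNA glycosylase, differed by 1.099 (SE 0.39), and Rhox7-ps2, from the reproductive homeobox cluster, by 1.32 (SE 0.43). Gpx4-ps2, Alms1-ps2, Rtraf-ps, Mrpl48-ps, Llph-ps2 and Ube2d-ps also rose, by 0.49 to 1.63.

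Those that fell included Rbpj-ps3, named after the DNA-binding partner of Notch, at 1.91, 3.24 and 3.58 log2 CPM in WT, -0.19, 3.00 and 3.06 in S970A and 0.16, 1.36 and 1.40 in S970D. Its difference from WT was -1.93 (SE 0.85), adjusted p = 0.00831 with the block in limma and 0.111 without. Actg-ps1, an actin copy, was at -0.73, -0.09 and -0.71 in WT and -2.03, -1.74 and -2.23 in S970D, a difference of -1.49 (SE 0.28). Znf41-ps differed by -1.24 (SE 0.43), Vamp7-ps, named after a vesicle fusion protein, by -0.77 (SE 0.24) and Mrip-ps by -0.99 (SE 0.43). Tes3-ps, Ywhaq-ps3 and Pisd-ps1 also fell by 1.45, 1.64 and 0.43 on the log2 scale.

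Other members held nearly steady values. Eif4a-ps4, which shares 91.0% of its windows with another gene, was at 7.82 to 8.26 log2 CPM in the 9 libraries, and Nsa2-ps1 at 5.90 to 6.44. The SD between replicates was 0.06 for Tmem181b-ps, 0.11 for Ppp4r1l-ps and 0.12 for Gpr137b-ps, against a median of 0.60 over all members and 0.34 over all genes.

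S970A cells differed little from WT. No member and no gene passed limma's test, 0% of all genes, and the smallest adjusted p of a member was 0.776, or 0.436 with the block. At an unadjusted p under 0.05, 5 members were higher and 2 lower, beside 1.04% and 0.714% of all genes. Groups did not overlap for 6 members that were higher and 2 that were lower, beside 3.1% and 3.32% of all genes. The median difference was 0.37 for ribosomal members, with 64 of 76 above 0, and -0.03 for the others. Without S970A replicate 1 the ribosomal median was 0.03.

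Largest positive differences in S970A against WT belonged to Rpl10-ps3, Ndufs5-ps, Rps12-ps4 and Rps10-ps2. Ndufs5-ps, named after a subunit of respiratory complex I, was at -4.09, -4.09 and 1.21 log2 CPM in WT, 3.94, 2.86 and -4.09 in S970A and -4.09, 3.02 and -4.09 in S970D. Rps12-ps4 was at -4.09, -1.43 and -4.09 in WT, 1.48, -1.79 and -0.28 in S970A and -0.33, -1.36 and -4.09 in S970D. Neither kept its groups apart. Kansl2-ps, Sms-ps, Rpl10a-ps1 and Vdac3-ps1 had the largest negative differences, all in part from S970A replicate 1. Without that library the difference of Kansl2-ps was -3.07, while that of Sms-ps went from -3.31 to -0.31, that of Vdac3-ps1 from -2.79 to -1.41 and that of Rpl10a-ps1 from -3.26 to 0.55. The difference of Ndufs5-ps went from 3.22 to 1.71.

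In S970D against S970A no member and 0% of all genes passed, with a smallest adjusted p of 0.411 for the members in limma and 0.109 with the block. At an unadjusted p under 0.05, 8 members were higher and 8 lower, beside 3.34% and 3.61% of all genes. Groups did not overlap for 5 members in each direction, beside 3.96% and 4.11%. The median difference was 0.66 for ribosomal members, of which 68 of 76 were above 0, and -0.11 for the others. When S970A replicate 1 was left out, 39 members were called higher and 11 lower, beside 18.7% and 20.8% of all genes.

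Rps15a-ps7, Nutf2-ps1, Rps18-ps3 and Rpl10-ps3 had the largest positive differences in that comparison. Rps18-ps3 was at -0.91, -0.62 and -0.80 log2 CPM in WT, -0.67, -1.40 and -4.09 in S970A and -0.63, -0.62 and 0.47 in S970D, so that 1 S970A library at the lowest value set its rank. The difference of Rps15a-ps7 was 2.57, or 4.59 without S970A replicate 1. Rpl10a-ps1, Ptges3-ps, Psenen-ps and Mpc1-ps had the largest negative ones. All 3 comparisons use the same 9 libraries, and any pair of them shares a group.

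Most parent genes were more abundant than their copies and varied less. Per kilobase of transcript, the median pseudogene lay 7.55 below its parent on the log2 scale, 9.30 for ribosomal pairs and 5.17 for others, and only 13 of 116 pseudogenes stood above the parent. The length was that of the annotated transcript with the longest coding sequence, or the longest transcript in genes without one. For some parents this is a long transcript, 5179 bases for Rps15a, so these per-kilobase values depend on that choice. Rps2-ps10, Rpl3-ps1 and Rps6-ps4 were among the 13, by 1.79, 1.33 and 0.72. They share 92.1%, 94.8% and 100% of their windows with other genes. Their levels relative to the parent therefore rest largely on how the authors' counting split shared reads. The range over the 9 libraries was wider for the pseudogene than for the parent in 99 of 116 pairs. Its median was 2.15 on the log2 scale for pseudogenes, 1.22 for parents and 1.27 for the log2 of the pair's summed CPM. Most pseudogenes were far lower than their parents, and some were at the lowest value in 1 or more libraries. The part of the low level in the wider range was not tested.

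Parents of ribosomal protein pseudogenes were themselves higher in S970D. All 34 had a higher mean than in WT, with a median difference of 0.86, and 27 passed with the block. Their medians were 9.68, 8.98 and 9.02 log2 CPM in WT, 10.22, 9.35 and 9.04 in S970A and 10.24, 9.99 and 9.98 in S970D, again with S970A replicate 1 beside S970D. For all 87 cytosolic ribosomal protein genes the median difference was 1.00, and 75 rose in the blocked fit. The 37 parents of other pseudogenes had a median difference of 0.0002, with 10 higher and 7 lower in the blocked fit, near the shares of all genes, 22.2% and 23.3%. The 645 pseudogenes without the -ps ending had a median difference of 0.26, with 134 (20.8%) higher and 83 (12.9%) lower in that fit, so that the share higher was no larger than among all genes.

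Pseudogene and parent differed from WT in the same direction in 100 of 116 pairs in S970D, 70 of 76 ribosomal and 30 of 40 others. The pseudogene's difference was within 1 log2 unit of the parent's in 83 pairs. The median of pseudogene minus parent was 0.19 over all pairs, 0.21 for ribosomal and -0.008 for other pairs, but it was -0.31 with a pseudocount of 1 CPM and -0.058 after removal of the GC and length trend, so it had no settled sign. Across pairs, Spearman's rho between the 2 differences was 0.34 (n = 116), -0.03 among the 76 ribosomal and 0.38 among the 40 other pairs. These pairs share libraries, and in part sequence and parents, so the coefficients are descriptions.

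**Figure D4:**
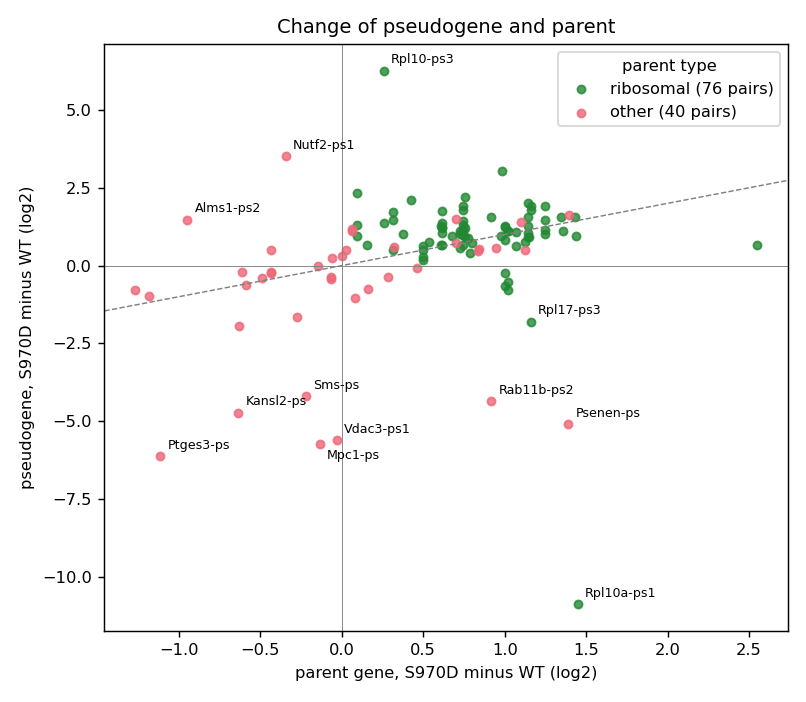
S970D minus WT (log2) of the pseudogene against that of its parent for 116 pairs, green for ribosomal and red for other parents, with the line of equality dashed. Most ribosomal pairs lie above 0 on both axes, and the 12 pairs farthest from the line are named, Rpl10a-ps1 lowest at -10.88 and Rpl10-ps3 highest at 6.26.

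Among the pairs whose 2 differences were almost equal were copies of Rpl7a and Rps25. Rpl7a-ps5 was at -2.60, -1.15 and -4.09 log2 CPM in WT, -2.13, -3.40 and -2.75 in S970A and -4.09, -0.83 and -1.46 in S970D, with a spread far above its difference of 0.48. Rps25-ps1 was at 2.12, 0.31 and -1.66 in WT, 0.44, 1.46 and -0.17 in S970A and -0.06, 1.32 and 2.41 in S970D, with overlapping groups.

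Anapc15-ps, named after a subunit of the anaphase-promoting complex and annotated as protein coding, was steadier. It was at -1.999, -2.12 and -2.47 log2 CPM in WT, -0.96, -1.98 and -2.01 in S970A and -1.38, -1.44 and -1.60 in S970D. Its difference was 0.72 and that of Anapc15 0.70, and it took 0.336% to 0.477% of the pair in every library.

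The pairs that differed most were Rpl10a-ps1, Psenen-ps, Rpl10-ps3 and Mpc1-ps. Relative to the parent, S970D minus WT was -12.33 on the log2 scale for Rpl10a-ps1, -6.49 for Psenen-ps, -5.61 for Mpc1-ps and 6.01 for Rpl10-ps3. These 4 were chosen by that difference, which is therefore given with no test. The summed CPM of each pair moved far less, by 1.09 for Rpl10a, 1.06 for Psenen, 1.02 for Rpl10 and -0.22 for Mpc1. A sum moves less than its more changed gene, so in pairs chosen for a large gap this follows in part from the choice. Over all 116 pairs, pseudogene minus parent did not overlap between S970D and WT in 19 pairs that were higher and 19 that were lower. Among all genes, taken singly and not as pairs, the groups did not overlap for 27.9% that were higher and 29.3% that were lower. The share among other gene pairs was not computed.

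For members whose named parent has no row, the gene sharing most windows was looked up. Eif4a-ps4 shared most with Eif4a1, the helicase of cap-dependent translation initiation, which was at 7.75 to 8.54 log2 CPM. Mrip-ps shared 76.5% of its windows with Mprip, a myosin phosphatase partner. Mprip differed by 0.39 (SE 0.16) between S970D and WT while Mrip-ps differed by -0.99. Eif3s6-ps2 shared windows with Eif3e, a subunit of initiation factor 3, and the 2 genes differed by -1.005 and -0.38. Rpl36al, the gene Rpl36a-ps3 resembles, was at 8.15, 7.33 and 7.23 in WT and 8.83, 8.51 and 8.63 in S970D, and Rpl36a-ps3 was at 8.57, 7.57 and 7.51 and at 9.01, 8.59 and 8.85.

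A few members have almost no 101-base window in common with any other annotated transcript. Members with a ribosomal parent name and under 1% of shared windows numbered 6, with a median S970D-minus-WT difference of 0.87, and 4 of the 6 were above 0. The largest of these, 1.73, was that of Rps18-ps4, which could not be aligned to Rps18 and so is ribosomal by name only. Rpl21-ps1, whose printed stretch holds 11 differences, was at 3.44, 2.66 and 2.56 log2 CPM in WT, 4.03, 2.99 and 2.72 in S970A and 4.18, 3.70 and 3.76 in S970D. Every S970D library lay above every WT library, by 0.99 (SE 0.36), adjusted p = 0.0794 in limma and 0.00697 with the block, beside 0.75 (SE 0.28) for Rpl21. Rpsa-ps4 was at -1.15, -1.52 and -1.92 in WT and -0.18, -0.32 and -0.28 in S970D, and Rpl22-ps1 differed by 0.75 (SE 0.39) with overlapping groups.

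Rps18-ps4 is annotated as a long noncoding RNA and could not be aligned to Rps18. It was at 3.22, 2.63 and 2.75 log2 CPM in WT, 3.56, 3.62 and 4.04 in S970A and 4.94, 3.91 and 4.94 in S970D, and both mutant groups lay above WT in every library. Rps18 itself differed by 0.31 (SE 0.26). Rpl31-ps21 was at -1.67, -1.63 and -1.57 in WT, -1.87, -1.36 and -0.53 in S970A and -3.17, -2.21 and -1.80 in S970D, a difference from WT of -0.77 (SE 0.45), while Rpl31 was higher by 1.02 (SE 0.34). Rps12-ps26 differed by -0.66 (SE 0.44) and Rps12 by 1.00 (SE 0.41). That retrocopy lies on the same strand within Nol11, a gene of ribosomal RNA production, which differed by -0.52. The 17 other members with under 1% of shared windows had a median of -0.02, with 8 above 0 and 9 below.

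Spread between replicates went with shared sequence. The median SD was 0.40 on the log2 scale for the 20 members with no shared window, 0.57 for 65 with under 50% of windows shared, 0.80 for 50 with 50% to under 100% and 0.83 for the 10 with every window shared. Spearman's rho between the SD and the share was 0.46 over the 145 members, as a description, since members share libraries and sequence and differ in level. The relation was loose. Rps12-ps3 and Rps6-ps4 share every window and had an SD of 0.47 and 0.53, and Rps15a-ps7 had the widest spread with 43.1% of windows shared.

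**Figure D5:**
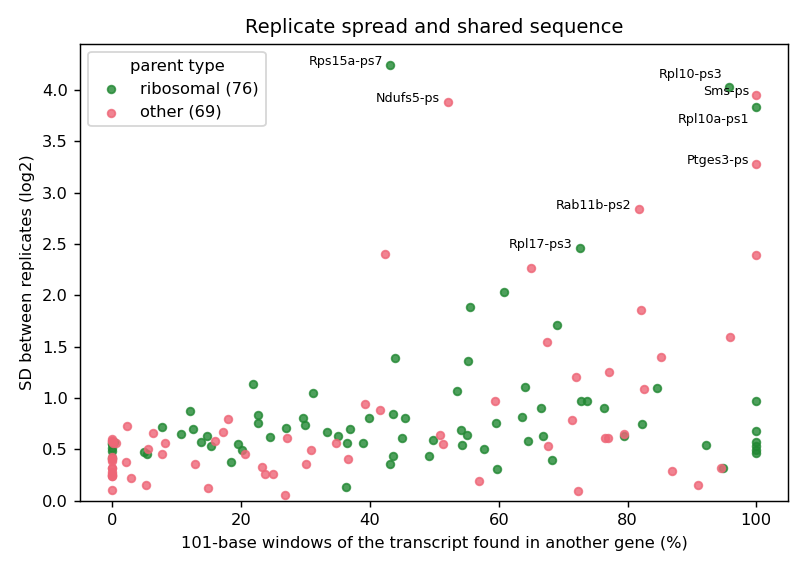
SD between replicates (log2, pooled over the 3 groups) against the percentage of 101-base windows that each of the 145 members shares with another gene, green for ribosomal and red for other parents. Members without shared windows stay at or below 0.60, and those above 2 share 42.3% or more; the 8 widest are named.

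Position within another gene was examined last. Of the 145 members 28 overlap another annotated gene on the same strand, and 20 of these lie wholly within it. The median S970D-minus-WT difference of the 20 was 0.78, against 0.61 for the 125 that lie within no such gene. Rpl21-ps12, inside Iqsec1, differed by 1.32 while Iqsec1 differed by -0.94, and Rpl36a-ps2, inside Ddah1, by 1.21 while Ddah1 differed by -0.77. Rps6-ps3 and Rab39 gave 1.03 and -1.18. In Morf4l1-ps1 and its surrounding gene Lpp both differences were negative, -0.41 and -0.92, as in Hmgb1-ps6 and Senp5, -0.24 and -0.54. In Rps13-ps4 and Taf1c both were positive, 1.57 and 0.97. Members and surrounding genes thus differed in both like and opposite directions. Where the surrounding gene had a row, like directions were more frequent than opposite ones, though several of those genes differed little.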

How the data were processed

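Per the labels' protocols, Trizol RNA was made into libraries with a stranded mRNA kit and 1 NovaSeq lane gave reads of 101 cycles per end. Named without a role in the submitters' processing notes are GRCm38, R 3.6.3, Salmon 1.1.0 and bcl2fastq 2.20. The authors deposited log2 CPM for 15977 genes, 1 column per library. How they were scaled and filtered, and with which prior count, is not given in the sources used here. All libraries have the same lowest value, -4.09. No read counts could be recovered, so depth and its precision are unknown, and a difference near the lowest value depends on that prior count. The number of per-sample columns not used is 0.

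The labels gave each library's group and replicate number. Members were matched by name. The members, the lists and the rule for named genes were chosen with earlier results of these data known. The rule gave every library for the 6 highest members, the 4 largest differences in each direction per comparison, and the 4 pairs most and least alike. One pair that the rule gave is not reported here. Other members were named after their values were seen.

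limma 3.58.1 in R 4.3.3 was fitted to all genes and all 9 libraries, with no term but the group, an intensity trend, 6 residual degrees of freedom and Benjamini-Hochberg adjustment over all genes, at 0.05. Adjusted p-values in the text are from this fit unless the replicate block is named. To see whether replicate numbers pair the libraries, deviations from group means were correlated between same-numbered libraries. Over all genes WT and S970D gave 0.31, 0.11 and 0.16, all above the bound of 0.1, and the block is therefore printed for that comparison. WT and S970A gave 0.59, 0.07 and 0.49, and S970A and S970D gave 0.38, 0.00 and 0.24, and neither met the bound. In these comparisons the block served only as an alternative, for the smallest adjusted p of a member and the number of calls. No label says what a number marks. Windows, alignments (blastn 2.17.0), lengths, frames and sequences used the GENCODE vM21 annotation of GRCm38, in which 99.9% of the gene IDs were found. Alternatives were a pseudocount of 1 CPM, only genes averaging at least 1 log2 CPM, median centring, quantile normalization, the 6 libraries of a comparison, no intensity trend, the replicate block, removal of the trend over GC content and length by splines of 5 degrees of freedom, and each library left out. Alternatives added after the data were seen kept members annotated as pseudogenes, dropped members at the lowest value, or averaged the members of a parent.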

Additional observations from a re-analysis of the deposited data

How the results depend on the processing

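Calls in S970D against WT depended on how the spread was estimated. The 1 gene called became 0 with a pseudocount of 1 CPM, without the intensity trend and after removal of the trend over GC content and length, 6727 with the 6 libraries of the comparison alone, 7276 with the replicate block and 3951 with the block after trend removal; leaving out 1 library gave 0 to 7615. Named pseudogenes called were 54 with the 6 libraries, 68 with the block and 39 with the block after trend removal, and 0 to 62 with 1 library left out, the highest without S970A replicate 1. In S970A against WT 1 library left out gave 0 to 1 gene. In S970D against S970A it gave 0 to 6307 genes and 0 to 50 members. The block changed no call in the latter 2 comparisons. The ribosomal median in S970D against WT, 1.09, was 0.42 with the pseudocount and 0.55 after trend removal, with or without the block. Pseudogene minus parent reversed to -0.31 with the pseudocount and -0.058 after trend removal, with or without the block, and in S970D against S970A to -0.17 with the pseudocount. Among single members, Rps15a-ps7 reversed to -0.73 without WT replicate 1 and ranged up to 4.39 with another library left out, Rps2-ps6 to -0.21 after trend removal, with or without the block, and Rpl10a-ps1 in S970A against WT to 0.55 without S970A replicate 1, with a lowest value of -5.31 without S970A replicate 3. The cause of these shifts was not tested. Depth is unknown, so low members near -4.09 log2 CPM cannot be given a counting error.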
